A study of Mus musculus with 2 samples.

Results

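The genes described here are the 9 vascular endothelial growth factor (VEGF) ligands, receptors and co-receptors named Vegfa, Vegfb, Vegfc, Pgf, Flt1, Kdr, Flt4, Nrp1 and Nrp2. They were taken by gene symbol from the count tables, where all 9 members were found among 33038 gene rows listed in either library. The samples were 2 RevGel-seq libraries from pancreatic islets of control C57BL/6J mice aged 8 weeks, without treatment or engineered allele. RevGel-seq is a single-cell RNA sequencing method in which each cell is paired with a barcoded bead and lysed inside a reversible hydrogel. Per the methods, the mice were male, the islets were released by collagenase injected into the bile duct, handpicked and dissociated with trypsin-EDTA, and the libraries were technical replicates of 10000 input cells each. All errors and p-values below therefore measure the spread between 2 libraries of the same cell preparation and not between animals.

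VEGF-A is secreted by endocrine cells of the islet and signals to the fenestrated capillaries that run through it. Its main signalling receptor is KDR (VEGFR2), while FLT1 (VEGFR1) binds VEGF-A tightly with weaker kinase activity and also exists as a soluble trap, and placental growth factor (PGF) and VEGF-B bind FLT1 but not KDR. VEGF-C is the ligand of FLT4 (VEGFR3), the receptor best known from lymphatic endothelium, and the neuropilins NRP1 and NRP2 are co-receptors that bind both VEGF ligands and class 3 semaphorins.

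The tables held 1483 cell barcodes, 735 in library 1 and 748 in library 2, with no barcode in common. The unit is the unique molecular identifier (UMI), a count of deduplicated transcripts. The libraries held 15931154 and 17440292 UMIs, with medians of 17340 and 18922 per cell. A hormone counted as present in a cell when its transcripts reached 1% of the cell's UMIs, with Ins1 and Ins2 summed as insulin. In 1300 cells at least 1 hormone was present, and 908 of them held a single one. Insulin alone was present in 372 cells, Gcg (glucagon) in 356, Sst (somatostatin) in 58 and Ppy (pancreatic polypeptide) in 122, while 151 cells held Gcg with Ppy and 148 held Sst with Ppy. Among 183 hormone-free cells, 58 carried at least 6 of 12 endothelial markers, 80 at least 4 of 8 leukocyte markers and 9 at least 5 of 10 mural (pericyte and fibroblast) markers, 3 met more than 1 of these rules and 33 met none. None of the 9 VEGF genes was among these markers. The 12 endothelial markers were all detected in the endothelial-marker cells in each library, but they chose these cells and are no separate check of them.

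A property of the hormone-positive cells bears on every receptor value below. Of the 1300 hormone cells, 8 also met the endothelial rule, 7 of them in library 1 and 1 in library 2. These 8 cells held 88.04% of the Flt1 UMIs, 82.7% of the Kdr UMIs, 93.6% of the Flt4 UMIs and 57.3% of the Nrp1 UMIs of all hormone cells. For Nrp2 the share was 4.15%, for Pgf 0.623% and for Vegfa 0.555%. Receptor values are therefore given with and without the mixed cells, meaning hormone cells that met the endothelial or leukocyte rule. The mural rule was not applied to hormone cells. Scrublet, a doublet caller, marked 0 cells in the insulin-only, Gcg-only, Sst-only and insulin and Sst groups. These groups held 3, 2, 1 and 1 of the 8 cells. Whether such barcodes held a pair of cells was not tested further.

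Levels are given as counts per 1000000 UMIs (CPM) other than those of the 5 hormone genes, because the hormones took from 9.79% (Sst only) to 39.5% (insulin only) of a group's UMIs. The counts carry no correction for transcript length, so levels were compared between cell groups and not between genes. On this scale the summed endothelial markers stood at 17744 and 16764 CPM in the endothelial-marker cells, which they chose. In the single-hormone groups they stood at 29.1 to 409 CPM. Intervals on counts and shares cover counting error only.

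Most UMIs of Vegfa and Pgf lay in other cells than most UMIs of Flt1 and Kdr. A share of UMIs also depends on how many cells a group holds. Hormone-free cells made up 12.3% of all cells, and the endothelial-marker cells among them 3.91%. Hormone cells held 96.2% of the 5992 Vegfa UMIs and 96.1% of the 1503 Pgf UMIs, and endothelial-marker cells held 91.6% of the 10978 Flt1 UMIs and 91.6% of the 7324 Kdr UMIs. Nrp1 had 83.6% of 5554 UMIs and Flt4 89.1% of 525 UMIs in endothelial-marker cells. Nrp2 had 38.3% of its 629 UMIs in hormone cells and 55.2% in endothelial-marker cells. Its mean level was 289 CPM in endothelial-marker cells and 50.6 in Sst-only cells, the highest of the single-hormone groups. Vegfb had 91.5% of its 750 UMIs in hormone cells and 2.4% in endothelial-marker cells. For the 117 Vegfc UMIs these shares were 67.5% and 17.9%.

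The sequences upstream of Vegfa, Flt1 and Kdr are printed here, for Vegfa at the more upstream of its 2 RefSeq starts. Each is the stretch from 250 to 11 bases before the RefSeq transcription start on GRCm38.p6, 5′ to 3′ along the gene's own strand, with the core of the binding motif of ETS transcription factors (GGAA, or TTCC on the other strand) in capitals. The windows are chr17:46032388-46032627 on the minus strand for Vegfa, chr5:147726022-147726261 on the minus strand for Flt1 and chr5:75978466-75978705 on the minus strand for Kdr.
Vegfa: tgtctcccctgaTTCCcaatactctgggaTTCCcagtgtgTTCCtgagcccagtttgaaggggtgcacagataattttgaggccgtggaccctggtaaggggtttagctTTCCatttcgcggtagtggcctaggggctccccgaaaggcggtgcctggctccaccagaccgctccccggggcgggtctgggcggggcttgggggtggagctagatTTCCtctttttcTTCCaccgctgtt
Flt1: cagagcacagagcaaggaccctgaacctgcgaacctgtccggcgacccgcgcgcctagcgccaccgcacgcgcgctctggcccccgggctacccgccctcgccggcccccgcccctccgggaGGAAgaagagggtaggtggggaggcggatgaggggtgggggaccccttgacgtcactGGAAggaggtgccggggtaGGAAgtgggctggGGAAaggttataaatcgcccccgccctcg
Kdr: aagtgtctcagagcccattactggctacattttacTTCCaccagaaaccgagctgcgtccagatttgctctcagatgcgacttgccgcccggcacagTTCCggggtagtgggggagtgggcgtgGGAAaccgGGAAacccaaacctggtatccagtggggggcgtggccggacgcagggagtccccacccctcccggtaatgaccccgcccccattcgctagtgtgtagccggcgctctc
The printed Vegfa window held 6 such cores, a number reached in 7.36% of 32851 promoter windows of the same length, and the Flt1 and Kdr windows held 4 each, reached in 30.5%. The core of the hypoxia response element (ACGTG or GCGTG, both strands searched, no overlap with GGAA) occurred 0 times in the printed Vegfa window, 1 time in the Flt1 window and 2 times in the Kdr window, against 37.4% of windows with any. The choice of start decides the Vegfa counts, since the window before its other RefSeq start (chr17:46025174-46025413, minus strand) held 1 GGAA core and 2 hypoxia cores. A match is a description of the letters and not of a bound factor.

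Vegfa (ENSMUSG00000023951, 17:46016993-46032369, minus strand, protein coding, no overlapping gene) was present in every hormone group. The insulin-only cells stood at 326 CPM in library 1 and 305 in library 2. Gcg-only cells stood at 229 and 255 CPM, and Ppy-only cells at 227 and 216. Sst-only cells had the highest single-hormone levels, 396 and 352 CPM, and the 4 groups fell into a higher pair (Sst only, insulin only) and a lower pair (Gcg only, Ppy only) that did not overlap in either library. The neighbours within each pair did not differ beyond the spread, with a log2 difference of -0.10 (95% interval -0.41 to 0.20, adjusted p = 0.724) between insulin-only and Sst-only cells and of 0.14 (-0.14 to 0.42, adjusted p = 0.606) between Gcg-only and Ppy-only cells. Across the pairs the differences passed the test. Insulin-only cells were 1.33-fold higher than Gcg-only cells (log2 0.41 ± 0.13 SE, adjusted p = 0.0192) and 1.47-fold higher than Ppy-only cells (log2 0.56 ± 0.14, adjusted p = 0.00399). Sst-only cells were 1.43-fold higher than Gcg-only cells (adjusted p = 0.021) and 1.58-fold higher than Ppy-only cells (adjusted p = 0.006). All of these tests are edgeR's quasi-likelihood test with Benjamini-Hochberg adjustment over 14108 genes, on sums of counts per group and library.

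The order of Vegfa levels between insulin-only and other cells depended on the scale. As CPM of all UMIs, hormones included, insulin-only cells stood at 202 and 179, and Gcg-only cells at 173 and 190, so that the groups overlapped. On that scale the log2 difference was 0.07 (adjusted p = 0.712), and the median of all genes moved to -0.34. Between insulin-only and Sst-only cells it was -0.83 (adjusted p = 0.00024) with a median of all genes of -0.69. Relative to those medians, both differences were close to the values given above.

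Vegfa was also the member seen in most cells. A Vegfa UMI was found in 89.0% and 87.9% of insulin-only cells, 86.3% and 89.7% of Gcg-only cells, 97.1% and 95.7% of Sst-only cells and 94.4% and 95.6% of Ppy-only cells. In endothelial-marker cells the share was 7.69% and 6.25%, with median depths of 15751.5 UMIs there and 13259.5 to 29746 in the hormone groups. Whether the Vegfa UMIs of endothelial-marker cells were background was not tested. Thinned to 4000 UMIs per cell, 68.3% to 72.4% of Sst-only cells and 42.0% to 50.9% of the cells of the other 3 groups held a Vegfa UMI. Of insulin-only cells, the 358 with insulin at 20% of UMIs or more stood at 329 and 311 CPM, and the 14 below that at 281 and 123. Outside the hormone cells, the 9 mural-marker cells held 256 and 527 CPM (26 and 11 UMIs).

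Between endothelial-marker and single-hormone cells Vegfa was 4.73 and 4.11 CPM against 216 to 396, without overlap. The fitted log2 difference from the mean of the 4 single-hormone groups was -5.79 ± 0.30 (adjusted p = 6.04e-14). In this comparison 51.5% of all genes were called, with a median log2 difference of -0.24 over all genes, and all 8 members tested were called. Against leukocyte-marker cells (6.92 and 15.7 CPM), Vegfa did not pass (log2 -1.20, adjusted p = 0.176). In that comparison 39.5% of all genes and 5 of the 8 members were called.

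**Figure D1:**
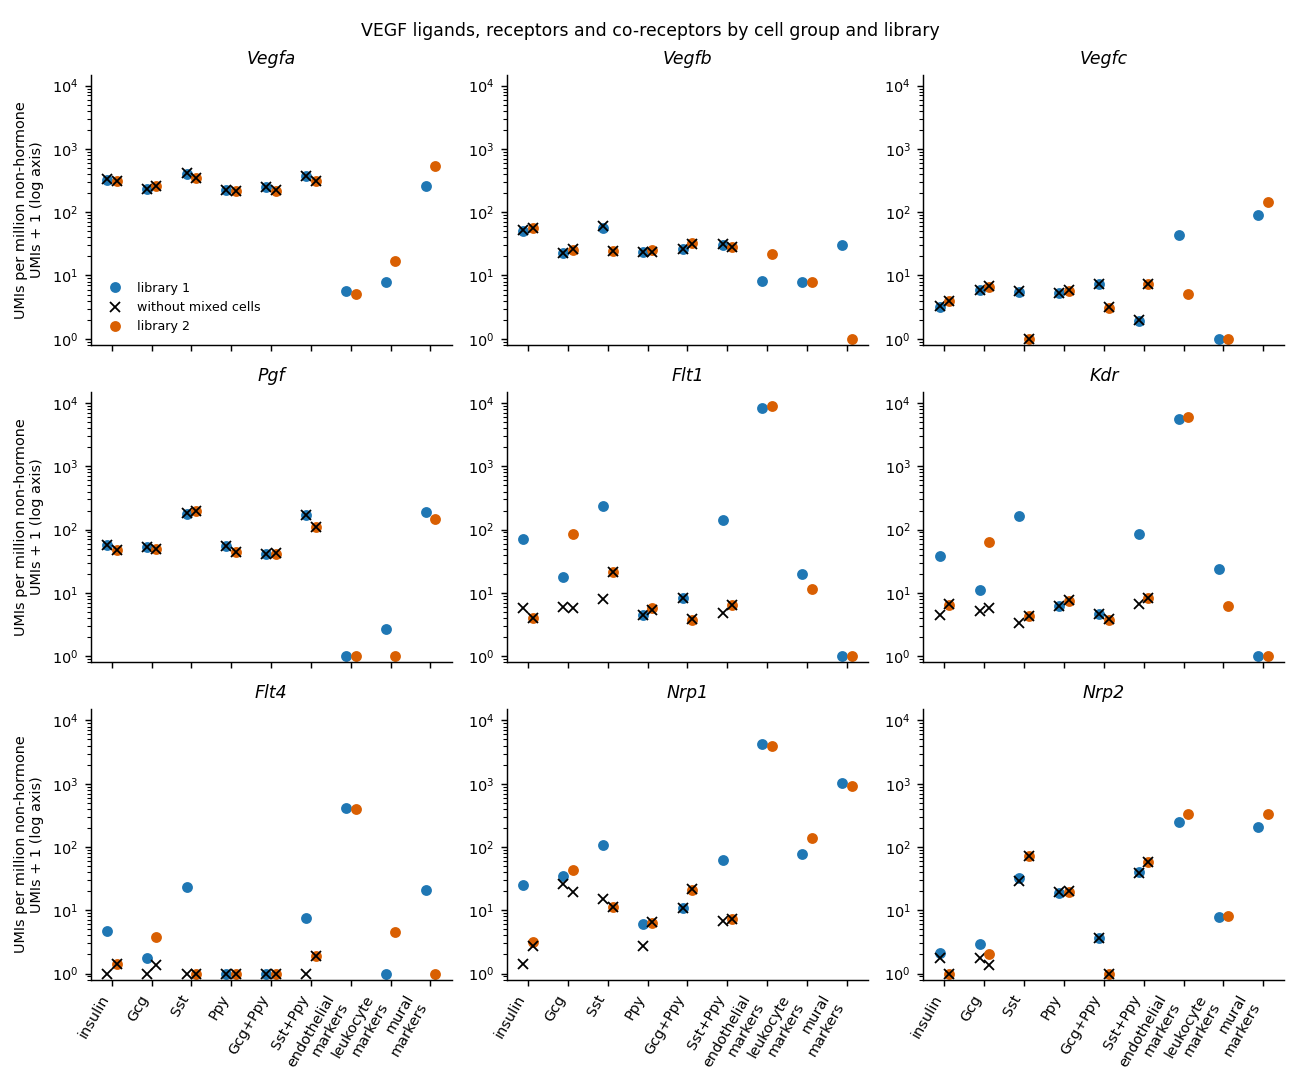
Level of each of the 9 genes (CPM of UMIs other than the 5 hormone genes, plus 1, log axis) in 9 cell groups, with 1 point per library (blue library 1, orange library 2) and black crosses for the value without mixed cells. Vegfa and Pgf lie high in the hormone groups and at or near 0 in endothelial-marker cells, and Flt1, Kdr, Flt4 and Nrp1 lie highest in endothelial-marker cells, where the crosses of the hormone groups fall below their points.

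Vegfb (ENSMUSG00000024962, 19:6982473-6987651, minus strand) encodes a FLT1 ligand with a weak effect on vessel growth. Insulin-only cells stood at 49.8 and 54.7 CPM. Gcg-only cells stood at 21.3 and 24.4 and Ppy-only cells at 22.3 and 24.0, both below the insulin-only cells in each library. The differences were 2.33-fold (log2 1.22 ± 0.25, adjusted p = 0.000596) and 2.31-fold (log2 1.21 ± 0.27, adjusted p = 0.00215). Sst-only cells were split, 54.9 in library 1 and 23.5 in library 2 from 25 and 7 UMIs, and differed from no other single-hormone group in the test. The endothelial-marker cells held 7.09 and 20.5 CPM, and their difference from the single-hormone groups (log2 -0.88, adjusted p = 0.047) was -2.09 in library 1 and -0.28 in library 2 taken alone. It missed the threshold under 6 alternatives, with adjusted p from 0.0542 (without doublets) to 0.176 (all UMIs), and 0.0854 under DESeq2.

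Pgf (ENSMUSG00000004791, 12:85166635-85177790, minus strand) was highest among the single-hormone groups in Sst-only cells. Sst-only cells stood at 178 and 194 CPM. Insulin-only cells stood at 56.1 and 45.9, Gcg-only cells at 52.2 and 48.5 and Ppy-only cells at 54.1 and 43.4. The last 3 groups overlapped, and every pairwise log2 difference among them was between 0.05 and 0.13 with an adjusted p of 0.746 or more. Sst-only cells were 3.26-fold above insulin-only cells (adjusted p = 1.22e-05), 3.39-fold above Gcg-only cells (adjusted p = 8.33e-06) and 3.57-fold above Ppy-only cells (adjusted p = 1.55e-05). Cells with both Sst and Ppy stood at 168 and 109.7 CPM, and cells with Gcg and Ppy at 40.3 in each library. Both groups with Sst were above the 3 other single-hormone groups and the Gcg and Ppy cells in each library. High Pgf was not particular to cells with Sst. The 20 cells with insulin and Ppy, without Sst at 1%, stood at 136 and 169 CPM (31 and 26 UMIs). They overlapped the Sst and Ppy cells and lay below the Sst-only cells. Of the small groups with Sst, 14 cells with Gcg and Sst stood at 225 and 113 and 22 with insulin and Sst at 76.5 and 142.

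The Pgf difference was one of cells with a transcript as well as of level. A Pgf UMI was found in 82.9% and 69.6% of Sst-only cells, against 27.9% to 45.6% of the other single-hormone cells, although Sst-only cells had the lowest median depth of the 4 groups. Thinned to 4000 UMIs, the shares were 44.5% and 43.6% in Sst-only cells and 9.23% to 14.5% in the others. In the 58 endothelial-marker cells Pgf was at 0 of 1153324 UMIs, which allows at most 2.60 CPM, so that it was at least 32.1-fold lower than the mean of the 4 single-hormone groups, 83.5 CPM. In mural-marker cells it was found at 187 and 144 CPM (19 and 3 UMIs).

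Vegfc (ENSMUSG00000031520, 8:54077606-54187096, plus strand) was sparse and did not pass the filter on low counts. It had 117 UMIs in all, 67.5% of them in hormone cells, at under 7 CPM in each library of the 4 single-hormone groups. Endothelial-marker cells held 18 UMIs in library 1 and 3 in library 2, and a single cell held 12 of them. The highest level was that of the mural-marker cells, 88.6 and 144 CPM, from 9 and 3 UMIs. In leukocyte-marker cells it was 0 of 578393 and 0 of 573018 UMIs, which allows up to 5.19 and 5.24 CPM.

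**Figure D2:**
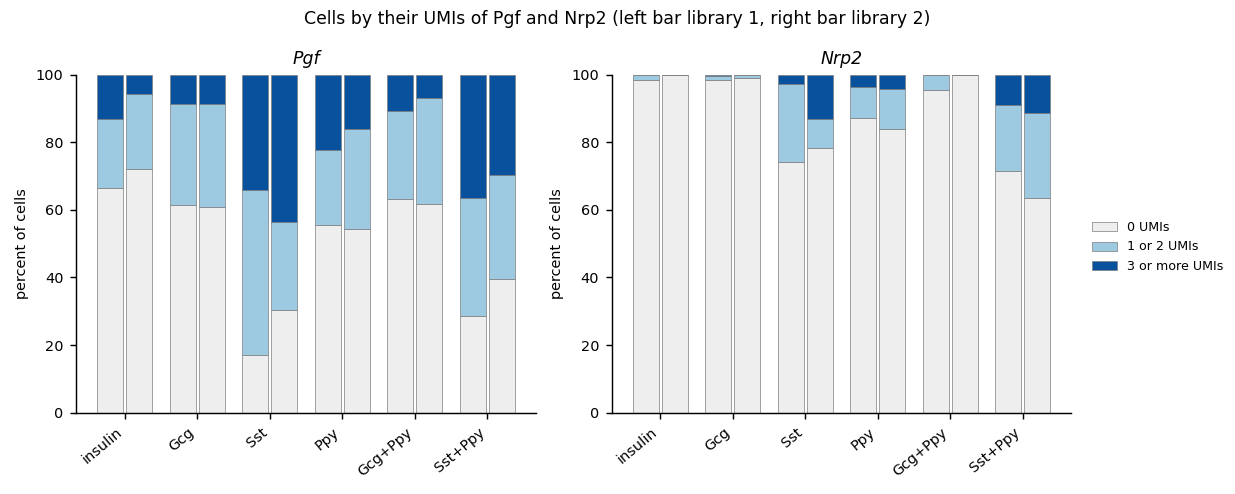
Percent of cells with 0, with 1 or 2 and with 3 or more UMIs of Pgf and of Nrp2 in 6 hormone groups, 1 bar per library. A Pgf UMI was found in 82.9% and 69.6% of Sst-only cells, and Nrp2 UMIs were found mainly in Sst-only, Ppy-only and Sst and Ppy cells, and rarely in the Gcg and Ppy cells.

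Kdr (ENSMUSG00000062960, 5:75932827-75978458, minus strand) and Flt1 (ENSMUSG00000029648, 5:147561604-147726011, minus strand) were found in every one of the 58 endothelial-marker cells. Flt1 stood at 8380.1 CPM in library 1 and 8910.04 in library 2, 8645 ± 375 (SD, n = 2), with a median of 155 UMIs per cell and a range of 15 to 525. Kdr stood at 5624 and 5926 CPM, with a median of 99.5 UMIs per cell and a range of 13 to 338. Flt4 (ENSMUSG00000020357, 11:49609263-49652739, plus strand) was lower in UMIs and just as general, at 411 and 403 CPM, with 1 to 29 UMIs in each of the 58 cells. The 3 receptors thus had no endothelial-marker cell without a transcript.

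Against the 4 single-hormone groups the receptor differences were large and passed the test. The log2 difference was 8.25 ± 0.53 for Flt1 (adjusted p = 2.79e-12), 8.00 ± 0.43 for Kdr (adjusted p = 1.22e-13) and 8.26 ± 0.34 for Flt4 (adjusted p = 6.44e-15). Without the mixed cells these became 10.81, 10.58 and 11.43, since the receptor counts of the hormone groups dropped with them. Against leukocyte-marker cells the log2 differences were 9.34, 8.84 and 7.95 (adjusted p of 2.51e-07, 2.66e-08 and 1.84e-09). In the mural-marker cells Flt1 and Kdr were both at 0 UMIs in each library.

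In hormone cells with few endothelial markers the receptors were low. In the 1274 hormone cells with under 3 endothelial markers, Flt1 stood at 4.58 and 4.79 CPM and was found in 6.85% and 6.97% of cells, with at most 3 UMIs in a cell. In leukocyte-marker cells the share was 14.6% and 12.8% at a lower median depth of 10896.5 UMIs, and in the 30 of them with B cell markers it was 13.3%. Kdr was found in 4.78% and 7.28% of these hormone cells against 9.76% and 5.13% of leukocyte-marker cells. Flt4 had 3 UMIs in all 1274 cells. Without the mixed cells, Flt1 was found in 9.4% and 26.1% of Sst-only and 6.18% and 3.72% of insulin-only cells. The log2 difference of insulin-only from Sst-only cells was then -1.52 (adjusted p = 0.0784 in edgeR's test). Kdr was found in 9.43% and 15.4% of Ppy-only and 3.93% and 5.85% of insulin-only cells, and Ppy-only cells had the higher median depth. Whether these shares were background or expression was not tested.

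The apparent differences in receptors between hormone groups lay in a few cells. In Sst-only cells Flt1 was 231 CPM in library 1 and 20.1 in library 2, and Kdr was 163 and 3.35. A single library 1 cell held 102 of the 105 Flt1 UMIs, 73 of the 74 Kdr UMIs, all 10 Flt4 UMIs and 42 of the 48 Nrp1 UMIs. Flt1, Kdr, Flt4 and Nrp1 all passed the test between Sst-only and Ppy-only cells (adjusted p of 0.0176, 0.0276, 0.0167 and 0.0198). None of the 4 did without the mixed cells, where the adjusted p was 0.125, 0.505, 1 and 0.185 and the Kdr difference changed sign, from a log2 value of 3.86 to -1.20. In library 2 alone the log2 differences were 2.00 for Flt1, -1.003 for Kdr and 0.84 for Nrp1, and both groups had 0 Flt4 UMIs. In insulin-only cells Flt1 was 70.9 and 2.95 CPM with the mixed cells, and 4.67 and 2.99 without. In Gcg-only cells it was 16.8 and 84.3 with them, and 4.98 and 4.69 without. The summed endothelial markers moved with these values, at 409 and 33.5 CPM in Sst-only cells, 152 and 29.1 in insulin-only cells and 55.6 and 153 in Gcg-only cells. With the library as a block, Flt1 between Gcg-only and Ppy-only cells crossed the threshold (log2 3.77, adjusted p = 0.0356, against 3.59 and 0.0794 without the block), and without the mixed cells it was 0.30 (adjusted p = 0.807).

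**Figure D3:**
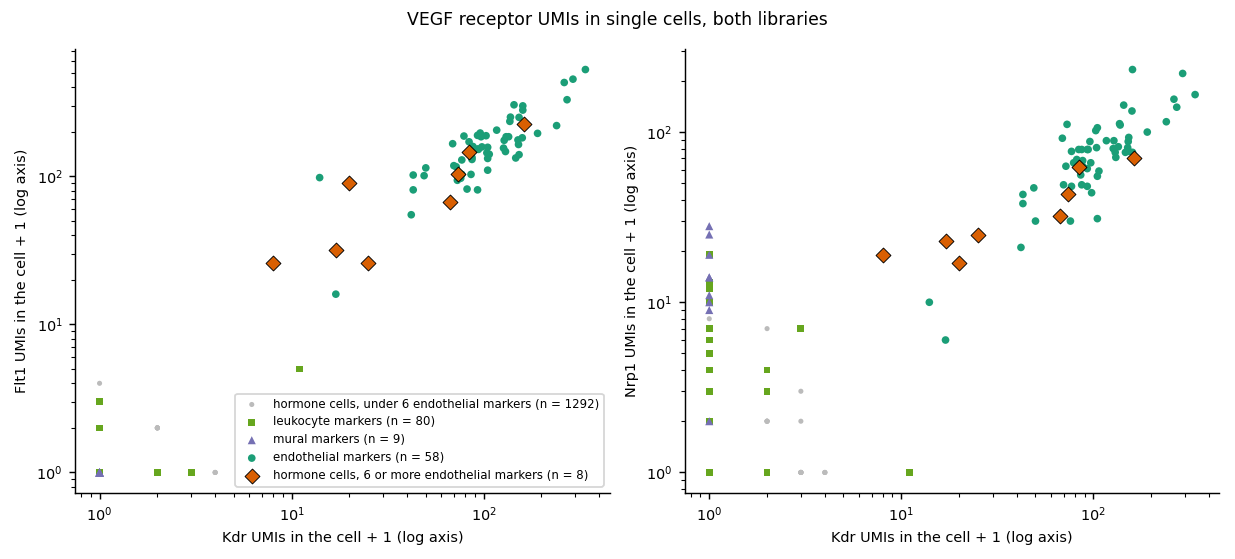
UMIs per cell plus 1 (log axes) of Flt1 against Kdr and of Nrp1 against Kdr, 1 point per cell: 58 endothelial-marker cells, 80 leukocyte-marker cells, 9 mural-marker cells, 1292 hormone cells with under 6 endothelial markers and, as diamonds, the 8 hormone cells with 6 or more. The diamonds lie among or near the endothelial-marker cells, and the other hormone cells lie at a few UMIs at most.

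Across the 58 endothelial-marker cells the receptors varied together in log2 level, scaled to each cell's non-hormone UMIs. This is a description of cells that share libraries and differ in depth. Pearson's r was 0.863 for Flt1 and Kdr, 0.888 for Kdr and Nrp1, 0.866 for Flt1 and Nrp1 and 0.597 for Kdr and the sparser Flt4. For Kdr and Nrp2 it was 0.186, and for Nrp1 and Nrp2 it was 0.217. Lymphatic markers were scarce in these cells. Prox1, the transcription factor of lymphatic endothelium, was found in 7 cells, Lyve1 in 3 and Pdpn in 0 of 58 (an upper limit of 3 UMIs over all), while Ccl21a had 1722 UMIs in 5 cells, so that Flt4 was detected in many more cells than any of them.

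Nrp1 (ENSMUSG00000025810, 8:128358604-128503363, plus strand, overlapping Mir1903) was high in endothelial-marker cells, at 4227 and 3909 CPM, and in mural-marker cells, at 1023 and 910.2. Leukocyte-marker cells held 77.8 and 137.9 CPM, below both in each library. Within them, 19 cells with macrophage markers stood at 230.1 and 312, 20 with T cell markers at 219.9 and 78.5 and 30 with B cell markers at 12.0 and 0. Endothelial-marker cells exceeded the single-hormone groups by a log2 value of 7.81 ± 0.33 (adjusted p = 1.37e-15) and leukocyte-marker cells by 5.38 ± 0.52 (adjusted p = 1.29e-08).

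Among hormone cells, Nrp1 kept a level of about 10 CPM or more without the mixed cells in Gcg-only, Gcg and Ppy and Sst-only cells. Cells with Gcg and Ppy then stood at 9.86 and 20.4 CPM, with a UMI in 9.23% and 17.9% of cells. Their log2 difference from Gcg-only cells was -0.48 (adjusted p = 0.967). Without the mixed cells the Gcg-only cells stood at 25.3 and 18.4 CPM, with a UMI in 21.5% and 18.6% of cells and at most 6 in any cell. Insulin-only cells stood at 0.389 and 1.71, with a UMI in 0.562% and 2.13% of cells, and so did not overlap the Gcg-only cells. Ppy-only cells stood at 1.74 and 5.57 CPM, and Sst-only cells at 14.1 and 10.1 from 6 and 3 UMIs. Gcg-only and Sst-only cells did not differ in edgeR's test. The log2 value was 0.91 (adjusted p = 0.276) without the mixed cells and -0.66 (adjusted p = 0.616) with all cells. The difference of insulin-only from Gcg-only cells was a log2 value of -4.25 (adjusted p = 1.54e-09) without the mixed cells. With all cells it was -1.44 (adjusted p = 0.0771), and in single libraries it was -0.44 (library 1) and -4.23 (library 2). Of the insulin-only cells, 3 met the endothelial rule. With the library as a block it was -1.52 (adjusted p = 0.0458). Gcg-only cells exceeded Ppy-only cells with all cells (log2 2.86, adjusted p = 0.0247) and without the mixed cells (log2 2.45, adjusted p = 3.72e-05), but not with all cells under DESeq2 (adjusted p = 0.147) or with hormones from 0.5% of UMIs (adjusted p = 0.0839). Insulin-only and Sst-only cells differed by a log2 value of -2.09 with all cells (adjusted p = 0.069) and of -3.34 without the mixed cells (adjusted p = 0.00311).

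Nrp2 (ENSMUSG00000025969, 1:62703285-62818695, plus strand) overlaps Gm37121 on the same strand and Gm29083 on the other, so some of its UMIs could belong to these. It was found at 246 and 333 CPM in endothelial-marker cells and at 207 and 335 in mural-marker cells, which overlapped. Leukocyte-marker cells held 6.92 and 6.98. Endothelial-marker cells exceeded the single-hormone groups by a log2 value of 5.94 ± 0.26 (adjusted p = 2.56e-15) and leukocyte-marker cells by 5.54 ± 0.45 (adjusted p = 8.28e-10).

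In hormone cells Nrp2 was higher in Sst-only, Ppy-only and Sst and Ppy cells than in Gcg-only or insulin-only cells. Sst-only cells stood at 30.8 and 70.4 CPM, Ppy-only cells at 18.05 and 18.2 and cells with both at 39.1 and 57.6. Gcg-only cells stood at 1.90 and 1.06, from 5 and 3 UMIs, and insulin-only cells at 1.11 and 0, from 3 and 0 UMIs. The first 3 groups lay above the last 2 without overlap. Cells with Ppy beside Gcg or insulin, without Sst, did not show this level. It was 2.69 and 0 CPM (3 and 0 UMIs) in the 151 cells with Gcg and Ppy. In the 20 with insulin and Ppy it was 4.38 and 0 (1 and 0 UMIs). The 14 cells with insulin, Sst and Ppy stood at 47.9 ± 13.8 CPM (SD, n = 2), and the 15 with Gcg, Sst and Ppy at 2.30 ± 3.25. A Nrp2 UMI was found in 25.7% and 21.7% of Sst-only and 13.0% and 16.2% of Ppy-only cells, against 1.65% and 0% of insulin-only cells at median depths of 13259.5, 29746 and 18734.5 UMIs. In UMIs pooled over both libraries, the ratio of Sst-only to insulin-only cells was 78.7, with a 95% counting interval of 24.8 to 400.1. That of Ppy-only to insulin-only cells was 30.7 (9.95 to 154). The fitted differences, which the test is of, were 62.7-fold (adjusted p = 1.66e-06) and 25.9-fold (adjusted p = 1.73e-05). Against Gcg-only cells the pooled ratios were 31.6 for Sst-only and 12.3 for Ppy-only cells. The fitted differences there were 27.9-fold (adjusted p = 4.83e-06) and 11.5-fold (adjusted p = 0.000173). The step between Sst-only and Ppy-only cells did not pass (log2 1.28, adjusted p = 0.0832). In library 1 alone the fitted log2 differences of insulin-only cells were -4.52 from Sst-only and -3.89 from Ppy-only cells, and library 2 allows no such value with insulin-only cells at 0 UMIs.

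**Figure D4:**
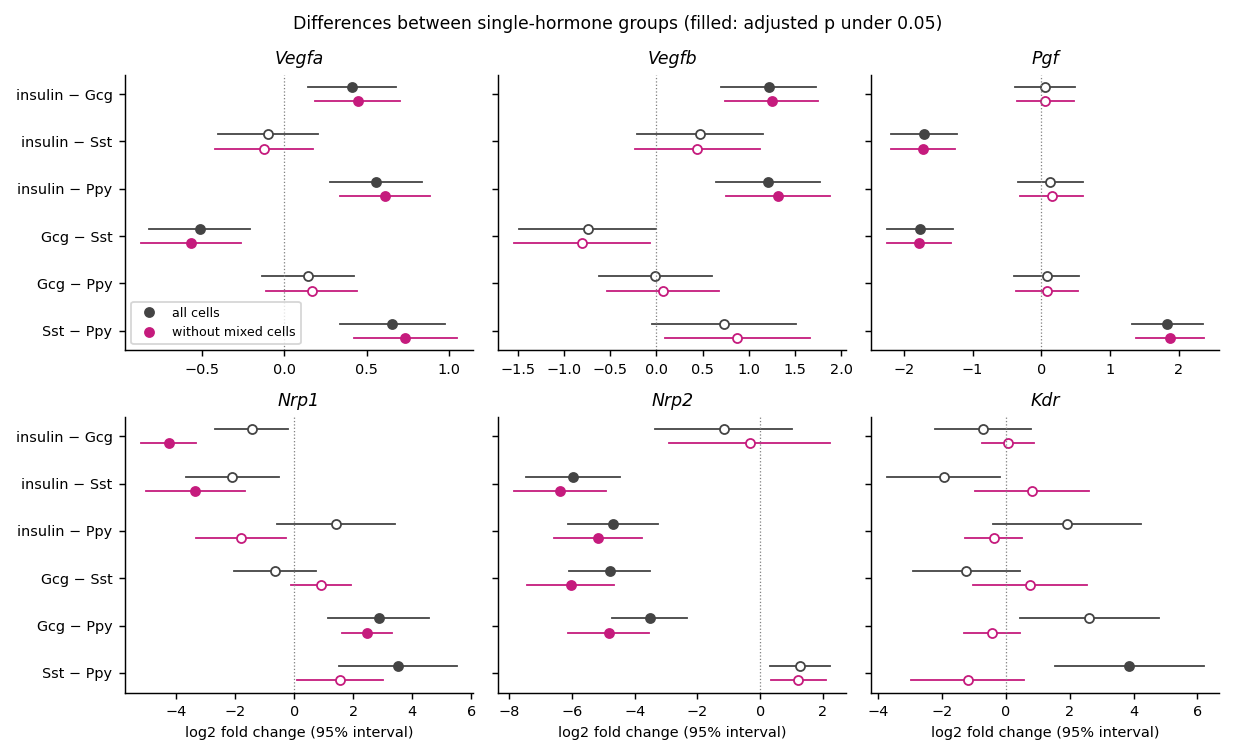
Log2 difference with its 95% interval for 6 genes in the 6 comparisons between single-hormone groups, with all cells (grey) and without mixed cells (pink), filled where the adjusted p was under 0.05. Vegfa, Vegfb and Pgf barely move when the mixed cells are left out, Nrp2 moves from -4.80 to -6.05 between Gcg-only and Sst-only cells, and Nrp1 moves from -1.44 to -4.25 between insulin-only and Gcg-only cells.

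The counts of members called are given here beside the share of all genes called in the same comparison. Of all genes, 27.6% were called between insulin-only and Gcg-only cells, where 2 of the 8 members tested (Vegfa and Vegfb) were. For insulin-only against Sst-only cells the share was 15.3% with 2 members (Pgf and Nrp2), and for insulin-only against Ppy-only cells 22.2% with 3 (Vegfa, Vegfb and Nrp2). It was 13.4% with 3 members (Vegfa, Pgf and Nrp2) for Gcg-only against Sst-only cells, and 11.5% with 2 (Nrp1 and Nrp2) for Gcg-only against Ppy-only cells. For Sst-only against Ppy-only cells it was 10.2% with 6 members, of which 2, Vegfa and Pgf, were called without the mixed cells.

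Double-hormone cells were compared in a fit for Ppy beside Gcg and for Ppy beside Sst, the pairs with enough cells. Between cells with Gcg and Ppy and cells with Gcg alone, 0.106% of all genes and 0 of the 8 members were called by edgeR, with 2 members at an unadjusted p under 0.05 (Flt1 and Kdr, log2 -3.41 and -3.51) and 0 called by DESeq2. Of the Gcg-only cells, 2 met the endothelial rule, and without the mixed cells the log2 values were -0.0014 for Flt1 and -0.46 for Kdr. Between cells with Sst and Ppy and cells with Sst alone, 0.0213% of all genes and 0 members were called by edgeR, 0 had an unadjusted p under 0.05 and 0 were called by DESeq2. For Vegfa the log2 differences were -0.05 (95% interval -0.33 to 0.23) and -0.12 (-0.43 to 0.20), and for Pgf -0.33 (-0.82 to 0.16) and -0.39 (-0.86 to 0.08).

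**Figure D5:**
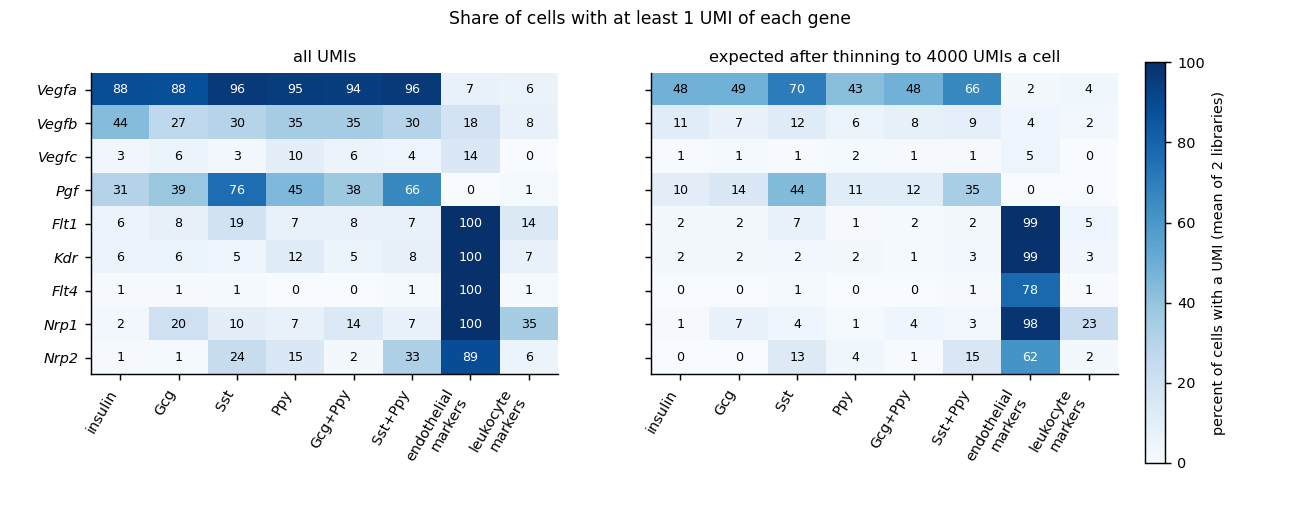
Percent of cells with at least 1 UMI of each gene in each cell group (mean of the 2 libraries), with all UMIs on one side and thinned to 4000 UMIs per cell on the other. Vegfa fills the hormone groups, Flt1, Kdr, Flt4 and Nrp1 fill the endothelial-marker cells, and the remaining receptor shares in hormone groups shrink on thinning.

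Genes of the same pathway were counted from 7 lists, leaving out the endothelial markers where endothelial-marker cells were compared. In endothelial-marker against single-hormone cells, 36 of the 64 genes tested were higher and 11 lower, so that 73.4% were called beside 51.5% of all genes. Of 19 genes of VEGF receptor signalling, 11 were higher, 2 lower and 6 were not called, with a median log2 difference of 1.31 beside -0.24 over all genes. Esm1, a secreted proteoglycan of endothelial tip cells, stood at 7004 and 7660 CPM in the endothelial-marker cells against a mean of 38.0 in the single-hormone groups, and the Notch ligand gene Dll4 at 352 and 429.96 against 9.15. Prkcb, a protein kinase C gene, was lower, at 0 and 4.11 against a mean of 116.6. Of 9 neuropilin ligands and plexins, 6 were higher and 2 lower. The semaphorin gene Sema3f stood at 563 and 438 CPM and the receptor gene Plxnd1 at 508 and 453 in endothelial-marker cells, against means of 2.40 and 1.58, while Sema3e was at 0 UMIs there and at a mean of 42.6 in the single-hormone groups.

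The remaining counts are read beside the same 51.5% of all genes called. Of 7 oxygen-sensing genes, 3 were higher and 1 was lower, a share near it. Epas1 (HIF-2α), a factor that binds hypoxia response elements, stood at 1797 and 1749 CPM in endothelial-marker cells against a mean of 18.6. Of 10 hypoxia target genes, 4 were higher and 4 lower. Both tested genes of the angiopoietin and Tie list that were not markers, Tek and Angpt2, were higher. Among 12 other angiogenic ligands 9 were higher and 2 lower, with Sparc at 5588 and 4498 CPM and Thbs1 at 664 and 602, against means of 24.8 and 3.44. Edn3 (endothelin 3) and Pdgfa were the 2 that were lower. Of 5 genes for processing VEGF-C and VEGF-D, Pcsk5 alone was called, and it was higher.

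Among hormone groups, the lists kept the endothelial markers Tie1, Ptprb and Cdh5, and the mixed cells were included. The lists were not counted without the mixed cells, so the part of these cells in the shares below was not tested. The same lists gave 18 of 67 genes called between insulin-only and Gcg-only cells, 26.9% beside 27.6% of all genes. The shares were 25.4% beside 15.3% for insulin-only against Sst-only, 29.9% beside 22.2% for insulin-only against Ppy-only and 19.4% beside 13.4% for Gcg-only against Sst-only cells. For Gcg-only against Ppy-only cells the share was 8.96% beside 11.5%. For Sst-only against Ppy-only cells it was 22.4% beside 10.2%, where the called genes included the endothelial markers Tie1, Ptprb and Cdh5. Edn3 stood at 384 and 329 CPM in Gcg-only cells and at 2.95 and 0.421 in insulin-only cells. Pdgfa, a ligand that acts on mural cells, stood at 139 and 175 in insulin-only cells and 64.8 and 79.7 in Gcg-only cells. Hgf, the ligand of MET, was at 54.9 and 40.2 in Sst-only cells and at 0 UMIs in insulin-only cells. Sema3e was at 57.1 and 97.2 in Sst-only and 60.2 and 62.2 in Ppy-only cells, against 3.32 and 0.842 in insulin-only cells. In both comparisons of double-hormone with single-hormone cells 0 of the 67 genes were called.

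Likeness was Pearson's r of the log2 level plus 10 CPM over the 16 sums of group and library. It is a description over sums that share 2 libraries. The genes with the most similar pattern are named here. For Vegfa they were Scrn1 (r = 0.997), Bex2 and Eno2, for Pgf Pex5l (0.990), Pamr1 and Smpd3 and for Vegfb Ube2o (0.952), Prkcsh and Pgrmc2. Flt1 and Kdr were nearest to each other (0.992), ahead of Ptprb and Plvap for Flt1 and of Igfbp3 and Esm1 for Kdr. Flt4 was nearest to Jcad (0.998), Col4a2 and Myct1, Nrp1 to Tnfaip2 (0.977), Slc43a3 and Pecam1, and Nrp2 to Adgrl2 (0.967), S100a16 and Nr5a2. For Vegfc, which did not pass the filter, they were Fbln5 (0.879), Kank4 and Cxcl12. Ptprb, Plvap and Pecam1 are among the markers that chose the endothelial-marker cells.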

How the data were processed

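Messenger RNA was counted per cell in 2 RevGel-seq libraries of mouse islets. The authors deposited raw UMI counts per gene and cell barcode for each library. They made them with Cytonaut, which took cell barcodes by the knee method of UMI-tools, aligned reads to exons of GRCm38 and removed duplicates. Exon-only alignment leaves out unspliced transcripts, and UMIs count molecules rather than reads. The aligner and the strand setting are not given in the sources used here, and Seurat is named in the submitters' processing notes. Depth was 15931154 and 17440292 UMIs, and no barcode was removed by the limits of 200 genes and 20% mitochondrial UMIs. Scrublet marked 16 cells as doublets, which were kept.

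Counts were summed over cells for 8 groups in each library, giving 16 sums. These were fitted with edgeR 4.0.16 in R 4.3.3 (quasi-likelihood test, TMM, filterByExpr, 8 residual degrees of freedom, 14108 genes, Benjamini-Hochberg threshold 0.05), with totals free of the 5 hormone genes. The fit was tested on simulated data. DESeq2 1.42.0 was an alternative, and Python 3.11.15 with scanpy 1.11.5, scipy 1.17.1, numpy 2.4.6 and pandas 2.3.3 did the rest. Sums with the same library number come from the same library and so are paired by construction. Over 28 pairs of groups their deviations correlated by -0.05 to 0.12 (median 0.0091). Intervals are 95% exact Poisson or Clopper-Pearson, and 3 counts is the limit taken for a count of 0. Shares at 4000 UMIs are exact expectations over cells of that depth or more. Coordinates are of GENCODE M21 on GRCm38, and promoter sequences are RefSeq's, matched for 9 of 9 members.

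The 9 members were all described. The pathway lists were counted whole, with at most 5 genes of each named from those past the threshold with the highest levels, and like patterns were named as the 3 genes with the highest r. Groups were also set with hormone limits of 0.5%, 2% and 5%, and fits were repeated without mixed cells, without doublets, without the top cell of each sum, on all UMIs, without the filter, with the library as a block and without each library. The members and lists were chosen with earlier results of these data known.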

Additional observations from a re-analysis of the deposited data

How the results depend on the processing

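A tally was kept for member differences called in the main fit, without mixed cells or with the library as a block. Vegfa between insulin-only and Sst-only cells was added. Calls that other alternatives gained outside this selection are not in the tally. On all UMIs, for example, 7 of the 8 members were called between insulin-only and Sst-only cells, against 2 in the main fit. Of the 489 log2 differences in the tally, 419 were unchanged, 21 gained the threshold and 30 lost it. A further 13 without a test moved and 6 changed sign. Unchanged meant the same direction and side of the threshold, except for fits without 1 library, which have no test. There it meant a value within the SD of the 2 single-library values from the main value. Such fits gave 24 (without replicate 1) and 32 (without replicate 2) of the 419. Without the filter on low counts, calls between single-hormone groups went from 18 to 33 and between double-hormone and single-hormone groups from 0 to 5. That fit took 30827 genes and gave every gene the same shared spread. The count in endothelial-marker cells was 13, with 12 to 14 under all alternatives.

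Kdr between Sst-only and Ppy-only cells (log2 3.86) was -1.20 without mixed cells, -1.77 without the top cell of each sum and -1.14 without hormone cells with 3 or more endothelial markers, an alternative chosen after seeing the data. Taken in 1 library at a time it ran from -1.003 (without replicate 1) to 4.82. Nrp1 between insulin-only and Sst-only cells (-2.09, adjusted p = 0.069) was 0.83 with hormones from 5% of UMIs and passed the threshold under 7 other alternatives, with adjusted p up to 0.0208, and Vegfa between the same groups (-0.10) was 0.0059 from 0.5%. The cause of the last 2 was not tested. At 0.5% the Vegfa differences of Gcg-only cells from insulin-only cells (adjusted p = 0.0595) and from Sst-only cells (adjusted p = 0.216) and that of Sst-only from Ppy-only cells (adjusted p = 0.0758) lost the threshold. The Gcg-only and Sst-only difference also lost it without the top cell of each sum (adjusted p = 0.0683) and without the filter (adjusted p = 0.089).

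With the library as a replicate block the counts of calls were 20, 0 and 13, and no call changed other than those of Flt1 and Nrp1 given above. On all UMIs the share of called genes that were higher fell from 51.4% to 22.8% for insulin-only against Gcg-only cells and from 51.1% to 6.83% against Sst-only cells, and rose from 53.1% to 92.7% for Sst-only against Ppy-only cells.

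The 2 libraries come from 1 preparation, so nothing here measures differences between animals. Sst-only cells number 58 and mural-marker cells 9, and a member with fewer than about 10 UMIs in a group has an interval too wide to rank.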

Other observations

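The 33 hormone-free cells outside the marker rules held a few further values. Among them, 16 cells with at least 3 of 5 ductal markers had Vegfa at 202 and 143 CPM and Pgf at 0 UMIs in each library. A pair of cells of library 2 with at least 3 of 5 Schwann cell markers (number of cells: 2) held 106 Nrp1 UMIs, 388 CPM, 76 of them in 1 cell. The remaining 15 cells had Vegfa at 255 and 164 CPM and Pgf at 91.0 and 82.0. These groups are too small for a test.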
